A study of Mus musculus with 30 samples.

Results

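The genes described here act at the coat and in the growth of lipid droplets: the CIDE family (Cidea, Cideb, Cidec), the perilipins Plin2, Plin3, Plin4 and Plin5, the droplet assembly gene Fitm1, the lipid transfer gene Osbpl3 and the lipase inhibitor G0s2. They were chosen by name, and each gene was read from the probe set that carries its symbol alone and has the highest mean over all 30 arrays. Of the 10 genes, 9 were measured, out of 17097 genes read in the same way, and Cidec was not analysed here. The choice of probe set took no account of the groups. It mattered for Plin5, whose used probe set averaged 9.03 on the log2 intensity scale against 8.06 for its other one, and for Osbpl3, whose used probe set averaged 6.60 against 5.12 and 4.38. The list of genes was drawn up with earlier results of these arrays known, so counts over it are descriptions.

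The study measured RNA of non-tumour liver with single-channel Affymetrix mouse arrays (HT MG-430 PM), each mouse on an array of its own. Of the 5 groups, 4 received the CD-HFD, the choline-deficient high-fat diet that produces fatty, inflamed liver and, in some animals, hepatocellular carcinoma (HCC). On this diet, 6 mice were given aspirin and clopidogrel as prophylaxis (Asp/Clo), 10 were given sulindac as prophylaxis, 4 were given vehicle and had developed HCC and fibrosis, and 5 were given vehicle and had developed neither. The fifth group was 5 healthy mice on chow, whose treatment is also labelled vehicle. Aspirin and sulindac inhibit cyclooxygenases, and clopidogrel blocks an ADP receptor of platelets. The labels give no strain, sex, age, dose, duration, batch or time of collection, and the tumour status of the drug-treated mice is not given. The 2 vehicle groups were defined by how the animals turned out, not by an assigned treatment.

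A lipid droplet is a core of triglyceride and cholesterol ester under a single layer of phospholipid. It forms in the membrane of the endoplasmic reticulum, is coated by perilipins that hold lipases back, and grows when CIDE proteins at a contact site pass lipid from a smaller droplet to a larger one. Hepatocytes carry few droplets in lean animals and many in fatty liver. In mice, Cidea, Cidec and Plin4 are best known from fat tissue and Fitm1 from muscle, and hepatocytes express Plin2, Plin5 and Cideb.

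The sequence just upstream of the RefSeq gene (GRCm38.p6) is shown for the 3 genes that passed as lower in Asp/Clo than in vehicle livers and are shown here with a sequence, Fitm1, Osbpl3 and Plin5, and for Plin2, the general coat gene, as the contrast. Each reads 5′ to 3′ on the gene's strand and ends 1 base before the gene. Capitals mark matches to a searched motif. Fitm1 is at chr14:55575424-55575673 (plus strand), Osbpl3 at chr6:50456355-50456420, Plin5 at chr17:56117607-56117798 and Plin2 at chr4:86670218-86670309 (minus strand for these last 3).
Fitm1: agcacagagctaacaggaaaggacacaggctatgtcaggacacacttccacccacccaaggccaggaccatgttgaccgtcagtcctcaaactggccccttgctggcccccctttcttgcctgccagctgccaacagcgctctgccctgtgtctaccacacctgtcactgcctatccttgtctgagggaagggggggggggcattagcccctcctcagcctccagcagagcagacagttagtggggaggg
Osbpl3: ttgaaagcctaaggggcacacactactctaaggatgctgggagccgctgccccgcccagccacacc
Plin5: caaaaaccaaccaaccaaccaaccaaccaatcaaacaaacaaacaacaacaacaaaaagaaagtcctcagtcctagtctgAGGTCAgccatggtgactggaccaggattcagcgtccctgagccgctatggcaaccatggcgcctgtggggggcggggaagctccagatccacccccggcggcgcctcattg
Plin2: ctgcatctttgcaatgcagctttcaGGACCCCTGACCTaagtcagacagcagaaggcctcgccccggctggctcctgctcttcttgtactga

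Windows of the 250 bases before the start site were searched for 8 of the 9 measured genes. Both strands were searched for AGGTCA (a nuclear receptor half-site), 2 copies of AGGTCA in the same direction with 1 base between them and up to 2 mismatches (the DR1 element, to which PPAR and RXR bind), CACGTG (an E-box) and TGACGT (a cyclic AMP response half-site). The first and the second motif overlap by design. Plin2 held both AGGTCA and the repeat at bases -225 to -213 from its start site, and Plin5 held AGGTCA at bases -170 to -165. These start sites lay 158 bases (Plin2) and 58 bases (Plin5) inside the RefSeq gene, so the positions do not count from the end of the printed stretches. For Plin4 and Osbpl3 the start site lay 166 and 184 bases inside the gene. Part of the searched window of these genes is therefore gene sequence that is not printed. The other 6 genes held none of the 4 motifs. Among 32851 windows of the same length, 4607 held AGGTCA, 3.24% the repeat, 6.02% CACGTG and 6.47% TGACGT. The upstream stretches of Fitm1 and Osbpl3 show no capitals.

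All values below are log2 intensity of 1 probe set, which compares groups but not genes. A difference is a log2 change from 1 limma fit over all 30 arrays, and "passed" means an adjusted p under 0.05 after Benjamini-Hochberg adjustment over the 17097 genes. Array medians lay between 24.1 and 24.6 on the deposited linear scale. In 4 animals the profile over the brighter genes lay nearer the mean of the other of the vehicle and healthy sets than of its own: the healthy mice Hlth_1798 and Hlth_1807 and the vehicle mice without HCC Veh_low_794 and Veh_low_1819. Values without them are given beside several results. They were picked on measured values, so leaving them out widens the gap between diets by construction and its p-values are too small. It also lowers the pooled spread of the fit, and with it the p-values of comparisons that hold none of these mice. Veh_low_794 and Veh_low_1819 were the lowest vehicle mice for Osbpl3, Plin4 and Plin2. Leaving them out thus widens the gap between the drug arms and vehicle for these genes, and those p-values are too small as well. Hlth_1798 and Hlth_1807 were the highest healthy mice for the same genes, which shifts the comparisons with healthy livers. Comparisons with vehicle share the 9 vehicle arrays, and those with healthy share the 5 healthy arrays.

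**Figure D1:**
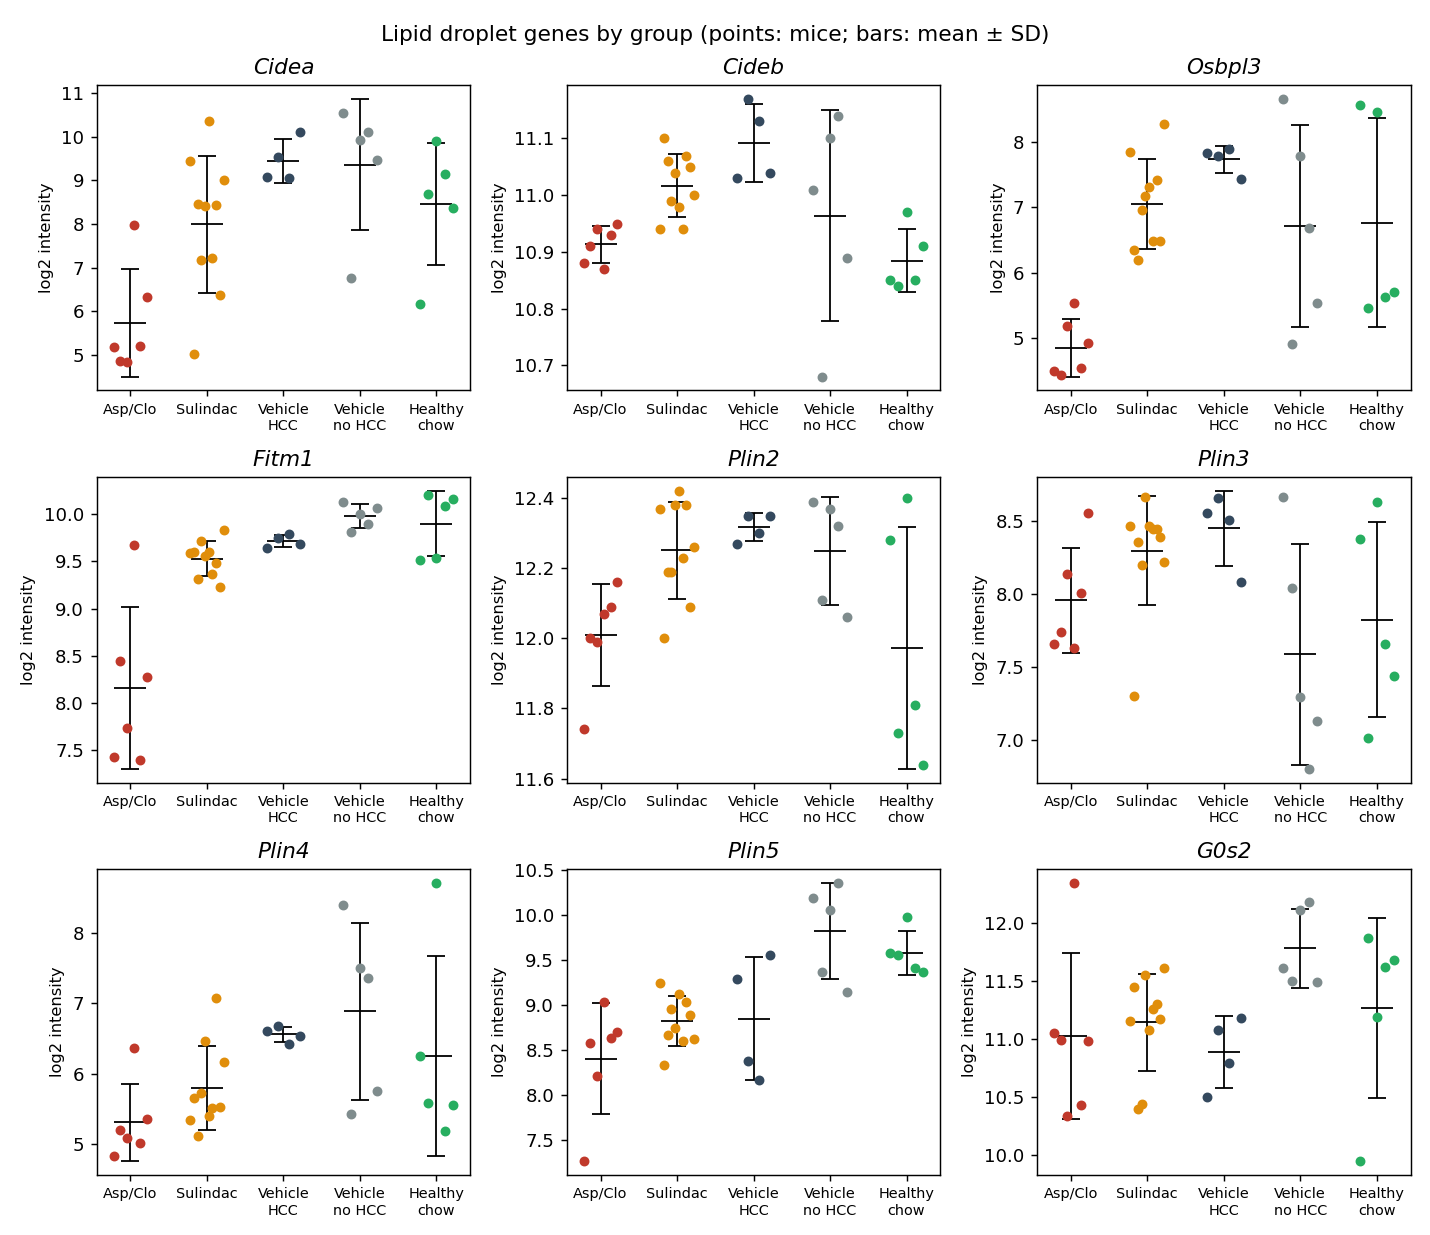
Log2 intensity of each of the 9 genes (vertical axis, 1 scale per gene) in Asp/Clo, sulindac, vehicle with HCC, vehicle without HCC and healthy mice (left to right); points are mice, long dashes with bars are mean ± SD. For Fitm1, 5 of the 6 Asp/Clo mice lie below all mice of the other groups, and healthy mice fall into separated points for Osbpl3 and Plin2.

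Asp/Clo livers had less signal for 4 of the 9 genes than vehicle livers: Fitm1, Cidea, Osbpl3 and Plin5. No member was higher. By comparison, 0.977% of all 17097 genes passed as lower in this comparison and 1.96% passed in either direction. Unadjusted p-values under 0.05 were found for 7 members, all lower, and for 6.9% of all genes in that direction. The median change over the 9 genes was -0.985, against 0.002 over all genes, and all 9 point estimates were below 0. Of all genes, 50.8% had a change above 0.

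Fitm1 encodes a membrane protein of the endoplasmic reticulum that binds triglyceride and promotes droplet formation. The gene lies at chr14:55575674-55576952, and no other RefSeq gene overlaps it. Its level was 7.40, 8.01 and 9.67 in Asp/Clo livers (lowest, median and highest of 6 mice) and 9.23, 9.57 and 9.83 in sulindac livers (of 10 mice). It was 9.64, 9.68, 9.75 and 9.79 in vehicle livers with HCC and 9.81, 9.90, 10.00, 10.06 and 10.13 in those without HCC. Healthy livers had 9.51, 9.54, 10.09, 10.16 and 10.20. Among Asp/Clo mice, 5 of 6, from 7.40 to 8.44, lay below all 24 mice of the other groups, and AspClo_62 at 9.67 lay among those.

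The Asp/Clo mean of Fitm1 was 8.16 ± 0.85 (SD, n = 6), against 9.86 ± 0.17 in vehicle livers (SD, n = 9). The log2 change was -1.70 (SE 0.215, limma adjusted p = 0.000213), which is 0.307 of the vehicle level, and it had the smallest p of all 17097 genes in this comparison. Against sulindac the change was -1.37 (SE 0.210, limma adjusted p = 0.00172), and 0.456% of all genes passed as lower there. Against healthy livers it was -1.74 (SE 0.246, limma adjusted p = 0.000199), where 1.13% of all genes passed as lower. Fitm1 passed in these 3 comparisons whichever mouse was left out, with a highest adjusted p of 0.00133 against vehicle, 0.0114 against sulindac and 0.00109 against healthy livers. These SEs pool the spread of all 5 groups, and Fitm1 varied more among Asp/Clo mice than in any other group. The pooled SE understates that spread, so these p-values and the rank by p are too favourable. In a fit restricted to the Asp/Clo and healthy arrays Fitm1 did not pass (limma adjusted p = 0.0793).

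The order of the Fitm1 means was vehicle without HCC, healthy, vehicle with HCC, sulindac and Asp/Clo, from high to low. Sulindac and Asp/Clo were the only neighbours in that order that differed beyond the threshold. Sulindac livers had 0.794 of the vehicle level (log2 change -0.33, SE 0.187, limma adjusted p = 0.562), and 8 of the 10 sulindac mice lay below the lowest vehicle mouse. In a fit restricted to the sulindac and vehicle arrays that difference passed (limma adjusted p = 0.0328).

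Cidea encodes a protein that promotes fusion of droplets and is known to be induced in fatty mouse liver. Its level was 4.84, 5.19 and 7.98 in Asp/Clo livers (lowest, median and highest of 6) and 5.02, 8.43 and 10.36 in sulindac livers (of 10). Vehicle livers with HCC had 9.04, 9.07, 9.53 and 10.11, and those without HCC had 6.76, 9.46, 9.92, 10.11 and 10.55. Healthy livers had 6.16, 8.36, 8.69, 9.15 and 9.89. The 5 lower of the 6 Asp/Clo mice lay below the lowest vehicle mouse, and the sulindac mice spanned nearly the whole range of the other groups.

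Cidea averaged 5.73 ± 1.23 in Asp/Clo livers (SD, n = 6) and 9.40 ± 1.11 in vehicle livers (SD, n = 9). Its change was -3.67 (SE 0.693, limma adjusted p = 0.00516). Of the 6 Asp/Clo mice, 4 lay between 4.84 and 5.20, near the median gene mean of 4.9, where differences can be compressed. The change from vehicle passed whichever mouse was left out. The change was -2.72 against healthy livers (SE 0.796, limma adjusted p = 0.0627) and -2.26 against sulindac livers (SE 0.679, limma adjusted p = 0.117), neither of which passed. Without the 4 mice the change against healthy livers was -3.00 (limma adjusted p = 0.0285). The change against sulindac livers, which holds none of those mice, stayed at -2.26, and only its pooled SE was smaller (0.59, limma adjusted p = 0.0453). Sulindac livers averaged 7.99 ± 1.57 (SD, n = 10), a change of -1.41 from vehicle that did not pass (SE 0.604, limma adjusted p = 0.399). A RefSeq gene model, B430212C06Rik, overlaps Cidea.

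Osbpl3 encodes an oxysterol-binding-protein relative that moves lipid at contacts between membranes. Its level was 4.43, 4.73 and 5.53 in Asp/Clo livers (lowest, median and highest of 6) and 6.19, 7.07 and 8.27 in sulindac livers (of 10). Vehicle livers with HCC had 7.43, 7.79, 7.83 and 7.89, and those without HCC had 4.91, 5.54, 6.68, 7.78 and 8.66. Healthy livers had 5.46, 5.62, 5.71, 8.46 and 8.56. Asp/Clo and sulindac mice did not overlap, a pattern found for 0.205% of all genes in that direction. The 2 high healthy values belong to Hlth_1798 and Hlth_1807, and the 2 low vehicle values to Veh_low_1819 and Veh_low_794.

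Osbpl3 averaged 4.85 ± 0.44 in Asp/Clo livers (SD, n = 6), against 7.17 ± 1.22 in vehicle livers (SD, n = 9), a change of -2.32 (SE 0.505, limma adjusted p = 0.0146). Against sulindac, where 0.456% of genes passed as lower, the change was -2.20 (SE 0.495, limma adjusted p = 0.0292). The sulindac comparison passed in 8 of the 16 fits that left out 1 mouse, with a highest adjusted p of 0.0712, and did not pass on the mean of the gene's 3 probe sets (change -1.04, limma adjusted p = 0.0653). The second probe set differed by -0.91 from sulindac and by -1.07 from vehicle. The dimmest one stood between 4.35 and 4.41 in all 5 group means, so averaging dilutes the difference. Without the 4 mice, Asp/Clo mice lay between 4.43 and 5.53 and vehicle mice between 6.68 and 8.66, and the change was -2.87 (limma adjusted p = 1.98e-05). Against healthy livers the change was -1.91 (SE 0.580, limma adjusted p = 0.0738), and without the 4 mice it was -0.74 (limma adjusted p = 0.331). Against vehicle livers without HCC alone, a split made after the data were seen, the change of -1.86 did not pass (limma adjusted p = 0.108).

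Plin5 coats droplets of oxidative tissues and tethers them to mitochondria. Its level was 7.27, 8.60 and 9.03 in Asp/Clo livers (lowest, median and highest of 6) and 8.33, 8.81 and 9.25 in sulindac livers (of 10). Vehicle livers with HCC had 8.17, 8.38, 9.29 and 9.56, and those without HCC had 9.14, 9.37, 10.05, 10.19 and 10.35. Healthy livers had 9.37, 9.41, 9.56, 9.58 and 9.98. All Asp/Clo and all sulindac mice lay below the lowest healthy mouse. In that direction, 0.819% of all genes did not overlap between Asp/Clo and healthy mice and 0.409% between sulindac and healthy mice.

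Plin5 averaged 8.40 ± 0.62 in Asp/Clo livers (SD, n = 6), 8.82 ± 0.28 in sulindac livers (SD, n = 10), 9.39 ± 0.76 in vehicle livers (SD, n = 9) and 9.58 ± 0.24 in healthy livers (SD, n = 5). The Asp/Clo change was -1.18 from healthy (SE 0.268, limma adjusted p = 0.0130) and -0.99 from vehicle (SE 0.234, limma adjusted p = 0.0251). The change from healthy passed in all 11 fits that left out 1 mouse. The change from vehicle passed in 10 of 15, and was lost without AspClo_58, AspClo_61, Veh_low_1810, Veh_low_1825 or Veh_low_2091 (highest adjusted p = 0.0886). In fits restricted to the arrays compared, neither passed (limma adjusted p = 0.0991 against healthy and 0.135 against vehicle). Its other probe set was at 7.43 in Asp/Clo and 8.43 in vehicle livers, and its change was -1.23 against healthy livers.

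The vehicle mice were also split by HCC. Plin5 averaged 8.85 ± 0.68 in vehicle livers with HCC (SD, n = 4), against 9.82 ± 0.53 without HCC (SD, n = 5), a change of -0.97 that did not pass (SE 0.297, limma adjusted p = 0.282). Set against vehicle livers with HCC alone, the Asp/Clo change was -0.45 (limma adjusted p = 0.546). Set against those without HCC alone, the sulindac change was -0.998 (limma adjusted p = 0.0388). These splits of the vehicle mice were chosen after the data were seen.

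Plin2 is the main droplet coat protein of hepatocytes, and its probe set was brighter on average than those of 99.2% of genes. Its level was 11.74, 12.03 and 12.16 in Asp/Clo livers (lowest, median and highest of 6) and 12.00, 12.25 and 12.42 in sulindac livers (of 10). Vehicle livers with HCC had 12.27, 12.30, 12.35 and 12.35, and those without HCC had 12.06, 12.11, 12.32, 12.37 and 12.39. Healthy livers had 11.64, 11.73, 11.81, 12.28 and 12.40. The groups overlapped, and the 2 high healthy mice were again Hlth_1798 and Hlth_1807.

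Plin2 averaged 12.01 ± 0.15 in Asp/Clo livers (SD, n = 6) and 12.28 ± 0.12 in vehicle livers (SD, n = 9). The change of -0.27 did not pass (SE 0.095, 95% interval -0.47 to -0.08, limma adjusted p = 0.151). It passed without the 4 mice (change -0.33, limma adjusted p = 0.00492), a fit that leaves out the lowest vehicle mice, Veh_low_794 and Veh_low_1819. Against healthy livers in that fit, Plin2 was higher in Asp/Clo livers (change 0.28, limma adjusted p = 0.0475). With all mice that change was 0.04 (limma adjusted p = 0.928). The whole spread of Plin2 over the 30 mice was 11.64 to 12.42, a narrower range than that of the 7 genes other than Cideb.

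Plin4, an adipocyte perilipin with a long lipid-binding repeat, averaged 5.31 ± 0.55 in Asp/Clo livers (SD, n = 6), 5.80 ± 0.60 in sulindac livers (SD, n = 10) and 6.74 ± 0.91 in vehicle livers (SD, n = 9). In 5 of the 6 Asp/Clo mice it lay below the lowest vehicle mouse. Its change from vehicle was -1.43 under Asp/Clo (SE 0.442, limma adjusted p = 0.0914) and -0.94 under sulindac (SE 0.385, limma adjusted p = 0.367), and neither passed. Both passed without the 4 mice, at -1.76 (limma adjusted p = 0.000425) and -1.27 (limma adjusted p = 0.0102). That fit leaves out the lowest vehicle mice for Plin4, Veh_low_1819 (5.42) and Veh_low_794 (5.75). Plin4 shares its locus with Hdgfl2.

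Plin3, a perilipin recruited from the cytosol to new droplets, averaged 7.96 ± 0.36 in Asp/Clo livers (SD, n = 6), 8.30 ± 0.37 in sulindac livers (SD, n = 10) and 7.97 ± 0.72 in vehicle livers (SD, n = 9). Its Asp/Clo change from vehicle was -0.01 (95% interval -0.53 to 0.50). Cideb, the CIDE protein of hepatocytes, which also lipidates very low density lipoprotein, averaged 10.91 ± 0.03 in Asp/Clo livers (SD, n = 6) and 11.02 ± 0.15 in vehicle livers (SD, n = 9). That change of -0.11 did not pass (95% interval -0.21 to -0.01, limma adjusted p = 0.275). G0s2, which inhibits the droplet lipase Pnpla2, averaged 11.02 ± 0.72 in Asp/Clo livers (SD, n = 6) and 11.38 ± 0.56 in vehicle livers (SD, n = 9), and its change of -0.36 did not pass (95% interval -0.92 to 0.20, limma adjusted p = 0.591). Cideb overlaps Nop9 and Ltb4r2. Its probe set, like the used one of Plin5, is of the kind that can match more than 1 transcript.

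**Figure D2:**
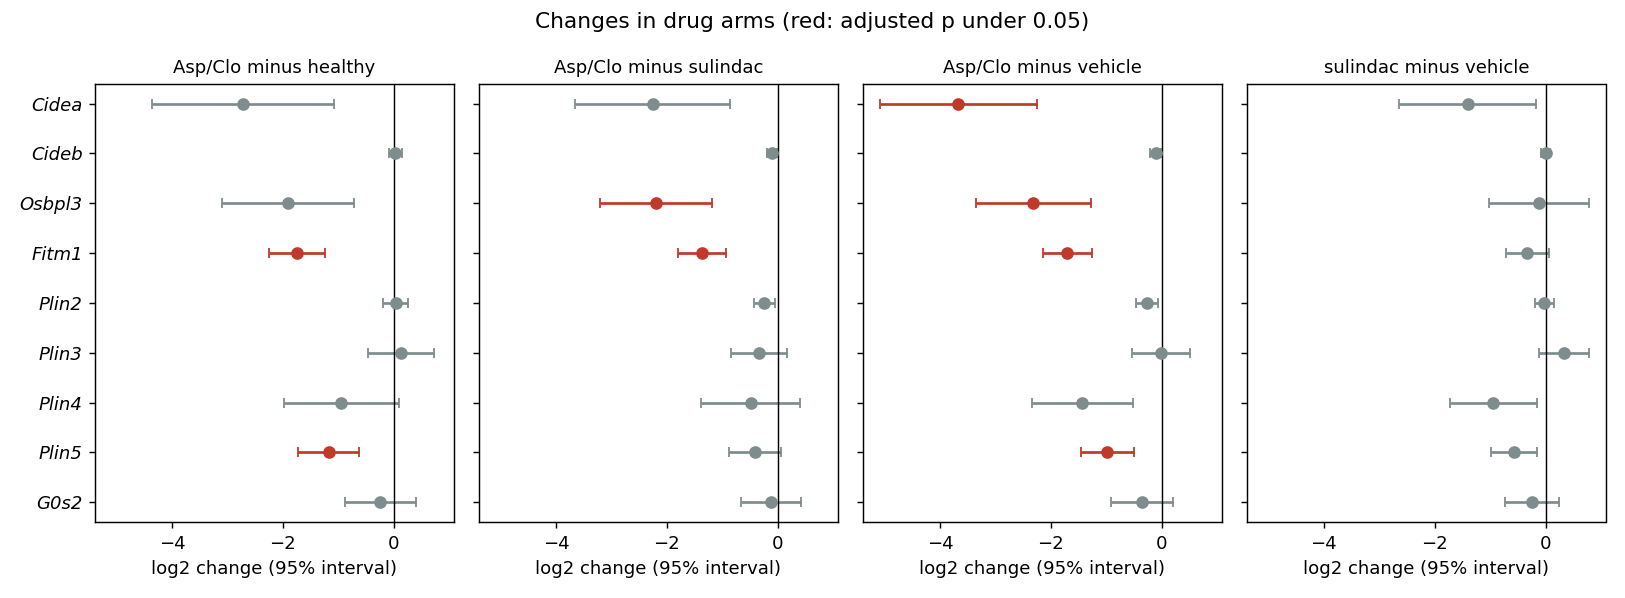
Log2 change (horizontal axis) of each gene with its 95% interval, in 4 comparisons of the drug arms; red marks a limma adjusted p under 0.05 over all genes. Fitm1 is red in each of the 3 Asp/Clo panels, and no gene is red for sulindac minus vehicle.

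In sulindac livers, 0 of the 9 genes passed in limma against vehicle, where 0.199% of all genes passed. Unadjusted p-values under 0.05 were found for 3 members, Cidea, Plin4 and Plin5, all lower, and 4.43% of all genes were lower at that level. Against healthy livers 0 of the 9 passed in limma, and 2.98% of all genes did. There 3 members had an unadjusted p under 0.05, as did 14.8% of all genes. They were Plin2 (change 0.28, limma adjusted p = 0.133), Cideb (change 0.13, limma adjusted p = 0.156) and Plin5 (change -0.76, limma adjusted p = 0.0903). Without the 4 mice, 4 members passed as higher in sulindac than in healthy livers, as did 4.87% of all genes. They were Plin2 (change 0.53, limma adjusted p = 0.000148), Osbpl3 (change 1.45, limma adjusted p = 0.015), Cideb (change 0.15, limma adjusted p = 0.0208) and Plin3 (change 0.93, limma adjusted p = 0.0401). Between the drug arms all 9 point estimates were lower in Asp/Clo livers (median -0.418, against -0.003 over all genes), and 2 passed, Fitm1 and Osbpl3. Of all genes, 0.456% passed as lower there and 48.3% had a change above 0.

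Vehicle livers on CD-HFD did not differ from healthy livers beyond the threshold in any of the 9 genes, 7 of which had a change above 0. Of all genes, 51.8% had a change above 0. In limma 0 members passed, and 0.0117% of all genes did. Plin2 and Cideb had an unadjusted p under 0.05, as did 6.73% of all genes. Plin2 averaged 12.28 ± 0.12 in vehicle livers (SD, n = 9), against 11.97 ± 0.35 in healthy livers (SD, n = 5), a change of 0.31 (95% interval 0.10 to 0.51, limma adjusted p = 0.503). Cideb averaged 11.02 ± 0.15 in vehicle livers and 10.88 ± 0.05 in healthy livers, a change of 0.14 (limma adjusted p = 0.597).

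Without the 4 mice, 4 members passed as higher in vehicle livers (7 mice) than in healthy livers (3 mice), where 3.16% of all genes did. In the drug comparisons named above without these mice, 2.37% of all genes passed as lower in Asp/Clo against vehicle livers, 2.5% against healthy livers and 1.16% against sulindac livers, and 0.292% in sulindac against vehicle livers. Plin2 averaged 12.33 in vehicle and 11.72 in healthy livers (change 0.61, limma adjusted p = 6.89e-05). Osbpl3 averaged 7.72 in vehicle and 5.59 in healthy livers (change 2.13, limma adjusted p = 0.00149). Plin4 averaged 7.07 in vehicle and 5.44 in healthy livers (change 1.63, limma adjusted p = 0.00389), and Cideb differed by 0.22 (limma adjusted p = 0.00234). Cidea, Plin5, Fitm1 and G0s2 did not pass in either setting, nor did Plin3.

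**Figure D3:**
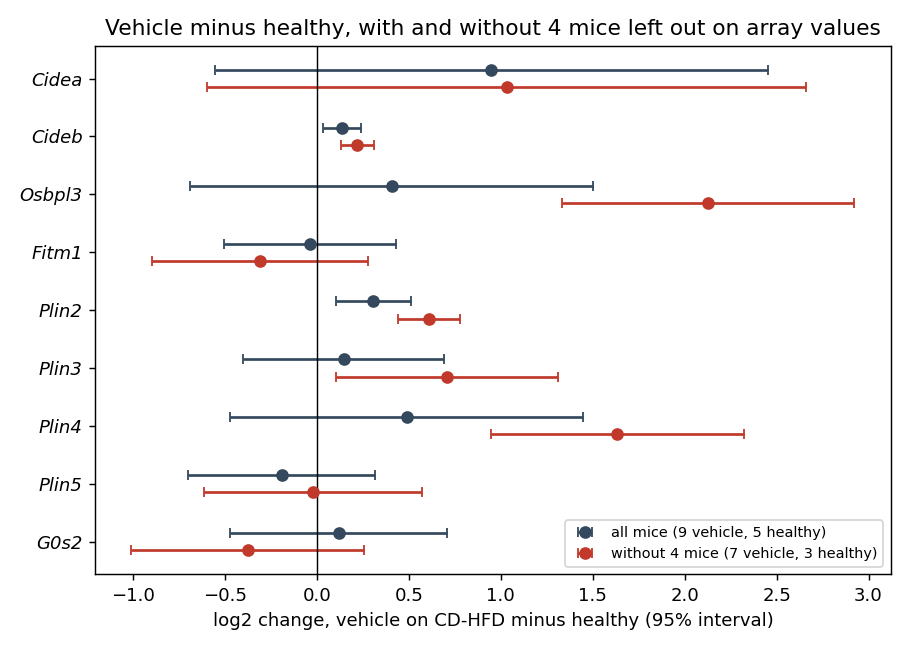
Log2 change (horizontal axis) of each gene in vehicle-treated CD-HFD livers relative to healthy ones, with 95% intervals, over all mice (dark) and without the 4 mice whose arrays lay nearer the other set (red). Osbpl3, Plin4, Plin2 and Cideb lie farther from 0 when these mice are left out, at 2.13 against 0.41 for Osbpl3.

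Between vehicle livers with and without HCC, 0 of the 9 genes passed in limma, and 0.0877% of all genes did. Unadjusted p-values under 0.05 were found for Plin3 and Cideb, higher with HCC, and for Plin5 and G0s2, lower with HCC, and for 8.87% of all genes. The Cideb change was 0.13 with all mice and 0.009 without the 4 mice (limma adjusted p = 0.985). Without them Osbpl3 was at 0.03, against 1.02 with all mice, and Plin4 at -1.19, against -0.33, and neither passed in either setting. Plin3 was at 8.08, 8.51, 8.56 and 8.66 with HCC, against 6.80, 7.13, 7.29, 8.04 and 8.67 without (change 0.86, SE 0.320, limma adjusted p = 0.388). G0s2 was at 10.50, 10.79, 11.08 and 11.18 with HCC, against 11.49, 11.50, 11.61, 12.11 and 12.18 without (change -0.89, SE 0.346, limma adjusted p = 0.419). G0s2 and Fitm1 did not overlap between these groups, a pattern that 1.98% of all genes show in that direction. Set against healthy livers, 0 members passed in limma with HCC, where 0.0994% of all genes did, and 0 without HCC, where 0% did. Unadjusted p-values under 0.05 were found for 3 members with HCC (Cideb, Plin2 and Plin5; 9.26% of all genes) and for 1 without HCC (Plin2; 5.32% of all genes). Cideb did not overlap between vehicle with HCC and healthy mice, and 1.49% of all genes were higher in that way.

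The mice varied as much as the groups for several genes. AspClo_62 had the highest value of the Asp/Clo mice for Fitm1, Cidea, Osbpl3, Plin4, Plin5 and G0s2, and was the lowest of them for Cideb and Plin3. Its Osbpl3, at 5.53, was still below all sulindac mice. Sulin_16 had the lowest sulindac values of Cidea (5.02), Plin2 (12.00), Plin3 (7.30) and Plin5 (8.33). Hlth_1807 had the highest healthy values of Cidea, Cideb, Plin2, Plin3, Plin4 and Plin5, and Veh_low_1810 had the highest value of its group for Cidea, Plin2, Plin3, Plin4, Fitm1 and Osbpl3.

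**Figure D4:**
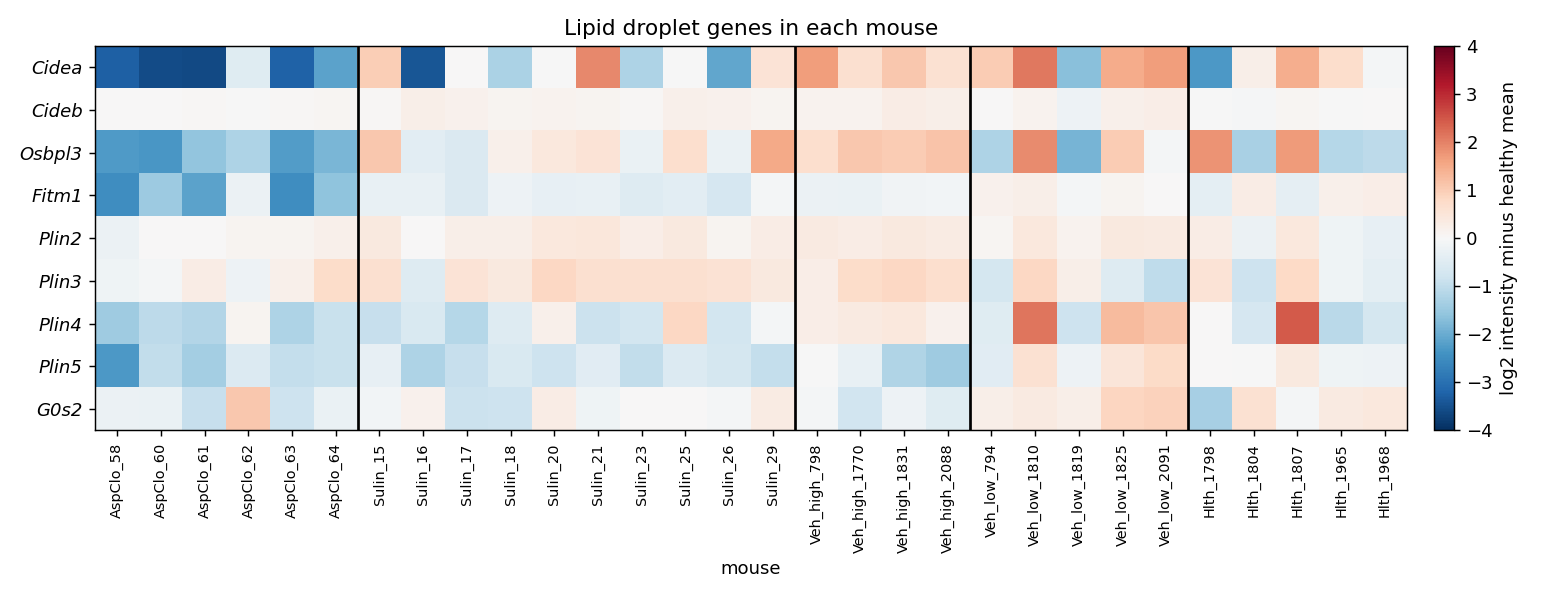
Log2 intensity of each gene minus its healthy mean (colour, red higher and blue lower) in every mouse; black lines part Asp/Clo, sulindac, vehicle with HCC, vehicle without HCC and healthy mice, left to right. Cidea, Osbpl3 and Fitm1 are blue in the Asp/Clo columns, palest in AspClo_62.

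Osbpl3, Plin4, Plin3 and Plin5 followed Plin2 from mouse to mouse. With each group's mean removed, over 30 mice and 8 pairs, Osbpl3 had a Pearson r of 0.79 and a Spearman rho of 0.80 with Plin2 (permutation p = 0.00017 and 6e-05, adjusted p = 0.00068 and 0.00048). Plin4 had 0.69 and 0.67 (permutation p = 0.00046 and 0.00071, adjusted p = 0.00123 and 0.00189). Plin3 had 0.63 and 0.61 (permutation p = 0.00292 and 0.0032, adjusted p = 0.00584 and 0.0064). Plin5 had 0.57 and 0.60 (permutation p = 5e-05 and 0.00021, adjusted p = 0.0004 and 0.00084). Without the 2 mice farthest from the median of Plin2, Hlth_1807 and Hlth_1968, the Pearson r values were 0.75 for Osbpl3, 0.57 for Plin4, 0.56 for Plin3 and 0.57 for Plin5. Hlth_1798 and Hlth_1807 were the highest healthy mice for Plin2, Osbpl3, Plin4, Plin3 and Plin5. Veh_low_794 and Veh_low_1819 were the lowest of their group for Plin2, Osbpl3, Plin4 and Plin5. The correlations were not computed without these mice, the ones nearer the other set.

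The other genes followed Plin2 less. Cidea had an r of 0.40 and a rho of 0.51 (permutation p = 0.046 and 0.00961, adjusted p = 0.0736 and 0.0154), and its r was 0.38 without those 2 mice. Cideb had 0.26 and 0.27 (permutation p = 0.15 and 0.171, adjusted p = 0.2 and 0.228). Fitm1 had -0.07 and -0.13 (permutation p = 0.732 and 0.552, adjusted p = 0.732 and 0.569), and G0s2 had -0.21 and -0.13 (permutation p = 0.482 and 0.569, adjusted p = 0.551 and 0.569). All arrays were normalized together, which the points share. Within the 10 sulindac mice alone, Cidea had an r of 0.90 with Plin2 (permutation p = 0.0005, adjusted p = 0.004) and Plin3 one of 0.75 (permutation p = 0.00637, adjusted p = 0.0255). Their Spearman rho values there, 0.77 and 0.78, did not pass (adjusted permutation p = 0.0512 for both). Osbpl3 (r 0.65), Plin5 (r 0.66) and Plin4 (r 0.35) did not pass in the sulindac mice (adjusted permutation p = 0.0892, 0.0892 and 0.436). Within the 6 Asp/Clo mice alone no pair passed, and the smallest exact p that 6 mice allow is 0.00139.

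The 5 genes outside the list named here were those most like the mean of the members' standardised values over the 30 mice with group means removed, among 8540 genes at or above the median gene mean. They were Adgrv1, an adhesion receptor (Pearson r 0.88), Vnn1, a pantetheinase (0.84), Omd, a small leucine-rich proteoglycan (0.84), Apoa4, an apolipoprotein (0.84), and Mogat1, which makes diglyceride (0.83). These values describe likeness only. Adgrv1 averaged 5.20 ± 0.52 in Asp/Clo livers (SD, n = 6), 7.85 ± 1.05 in sulindac livers (SD, n = 10), 8.63 ± 0.64 in vehicle livers with HCC (SD, n = 4), 7.30 ± 2.24 in those without (SD, n = 5) and 6.16 ± 1.69 in healthy livers (SD, n = 5). Omd and Mogat1 also had their lowest group mean in Asp/Clo livers, at 4.37 and 4.61. Vnn1 and Apoa4 did not. Group means of Vnn1 ran from 10.75 to 10.99. Apoa4 averaged 10.81 in Asp/Clo livers, 12.07 in vehicle livers with HCC, 10.61 in those without and 10.46 in healthy livers.

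Other genes of triglyceride storage were compared between Asp/Clo and vehicle livers. Of 22 measured further droplet proteins, 0 passed in limma (2 had an unadjusted p under 0.05, both lower). Of 17 triglyceride synthesis genes, 1 passed as lower, Mogat1 at 4.61 ± 0.36 in Asp/Clo livers (SD, n = 6) and 5.79 ± 0.91 in vehicle livers (SD, n = 9), a change of -1.18 (SE 0.309, limma adjusted p = 0.0421). In that list 4 genes were lower and 1 higher at an unadjusted p under 0.05, where 6.9% of all genes were lower. Of 13 triglyceride hydrolysis genes, 0 passed in limma and 0 had an unadjusted p under 0.05. The medians of these 3 lists were -0.092, -0.065 and -0.100, against 0.002 over all genes.

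Of 13 regulators, 1 passed as lower, Pparg, the nuclear receptor that promotes fat storage. Pparg was at 6.14, 6.26 and 6.66 in Asp/Clo livers (lowest, median and highest of 6), at 7.21, 7.59, 8.14 and 8.31 in vehicle livers with HCC and at 6.64, 6.85, 7.26, 7.42 and 7.72 in those without. Again 5 of the 6 Asp/Clo mice lay below the lowest vehicle mouse. The change was -1.13 (SE 0.171, limma adjusted p = 0.000924). Pparg was also higher in vehicle livers with HCC than in healthy livers, by 1.16 (SE 0.218, limma adjusted p = 0.0359). In sulindac against healthy livers, Ces1d, a triglyceride hydrolase, fell by 0.55 (limma adjusted p = 0.0087) and Mlxipl, a sugar-responsive activator of lipid synthesis, fell by 0.36 (limma adjusted p = 0.0263). No gene of these 4 lists passed in sulindac against vehicle, in vehicle against healthy or in Asp/Clo against sulindac livers.

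Marker sets of cell types were set beside the groups, and their part in the results was not tested. Against vehicle, only the brown adipocyte and red blood cell sets had a gene past the threshold in either drug arm. In bulk liver, fewer cells of a type and less RNA per cell cannot be told apart. The summed linear intensity of 9 hepatocyte markers was 77000 to 82400 in Asp/Clo livers, 76700 to 81100 in sulindac livers, 72800 to 78400 in vehicle livers with HCC, 75700 to 80400 in those without and 74400 to 79600 in healthy livers. The white adipocyte sum, over 9 markers, was 353 to 649 in Asp/Clo livers. It was 511 to 985 in vehicle livers with HCC and 299 to 2080 in those without. Its brightest gene was Fabp4, with means of 7.82 in Asp/Clo livers, 8.94 in vehicle livers with HCC and 8.99 in those without. Fabp4 averaged 8.55 in sulindac and 7.78 in healthy livers, and the other genes had group means of at most 5.45. The defining marker Adipoq was at 8.27 in Veh_low_794 and at most 4.62 in every other mouse. In that mouse Plin4 was 5.75, below 7 of the other 8 vehicle mice. Muscle markers, over 9 genes, summed to 193 to 201 in Asp/Clo livers and to 190 to 212 in vehicle livers. Muscle Acta1 was at 10.30 in Sulin_17 alone, where Fitm1 was 9.31.

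Brown adipocyte markers, 7 genes, summed to 240 to 1840 in Asp/Clo livers, 653 to 2310 in vehicle livers with HCC and 2240 to 5810 in those without. They summed to 522 to 2420 in sulindac livers and 1900 to 3310 in healthy livers. The sum follows 1 gene, Elovl3, and the other 6, Ucp1 among them, had group means of at most 4.98. Of the 7, Elovl3 passed as lower against vehicle (change -2.42, SE 0.498, limma adjusted p = 0.00946). Of 5 measured red blood cell genes, Hba-a1 and Hbb-b2 passed as higher in Asp/Clo livers, by 1.21 and 1.14 (limma adjusted p = 0.00296 and 0.00824), and Alas2 as lower. In sulindac against vehicle livers Hba-a1 and Hbb-b2 also passed as higher, by 1.08 and 1.09 (limma adjusted p = 0.00469 and 0.00909). Macrophage markers, 12 genes, had 0 members past the threshold in limma in Asp/Clo against vehicle livers. There 1 had an unadjusted p under 0.05, as did 14.6% of all genes. In sulindac livers 11 of the 12 had a change above 0 against vehicle (median 0.324, 0 passed in limma, 2 with an unadjusted p under 0.05) and 11 against healthy livers (median 0.551, 0 passed in limma, 4 with an unadjusted p under 0.05).

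Wdfy1 and Nnt set most drug-treated mice apart from vehicle and healthy mice. Wdfy1 was at 5.04, 7.03 and 7.85 in Asp/Clo livers (lowest, median and highest of 6) and 7.50, 7.65 and 8.04 in sulindac livers (of 10), against 4.80 to 5.70 in vehicle livers. Cohort and treatment cannot be told apart here. AspClo_60 was at 5.04 for Wdfy1 and 9.70 for Nnt, both within the vehicle range. Its Fitm1 was 8.44, its Cidea 4.86 and its Osbpl3 4.43, all below every vehicle mouse. AspClo_62 was at 6.32 for Wdfy1 and at 9.92, within the vehicle range, for Nnt. Its Fitm1 of 9.67, Cidea of 7.98 and Plin4 of 6.37 lay within the range of vehicle mice.

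The clock output gene Dbp, a guide to the time of day, was at least 7.70 in 5 of the 6 Asp/Clo mice and at least 7.76 in 9 of the 10 sulindac mice. It was at 10.00 and 10.20 in the vehicle mice with HCC Veh_high_1831 and Veh_high_2088 and at most 5.20 in the other 7 vehicle mice. Those same 2 vehicle mice had the lowest Plin5 of the vehicle mice, 8.38 and 8.17. AspClo_63 had a Dbp of 5.30, and its Fitm1 was 7.40, the lowest of all 30 mice, with Cidea at 5.20 and Osbpl3 at 4.54. Sulin_15, at 5.29 for Dbp, had a Plin5 of 9.25, the highest of the sulindac mice. Healthy mice had a Dbp of 4.63 to 6.19. Of 11 measured clock genes, 1 passed between vehicle livers with and without HCC, Cry1 (change -2.18, limma adjusted p = 0.019). Cry1 was at 5.51 to 6.76 with HCC, 7.12 to 8.99 without and 8.15 to 8.58 in healthy livers. It was at 5.58 to 7.19 in Asp/Clo and 4.94 to 6.90 in sulindac livers. The part of time of day in the members was not tested.

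**Figure D5:**
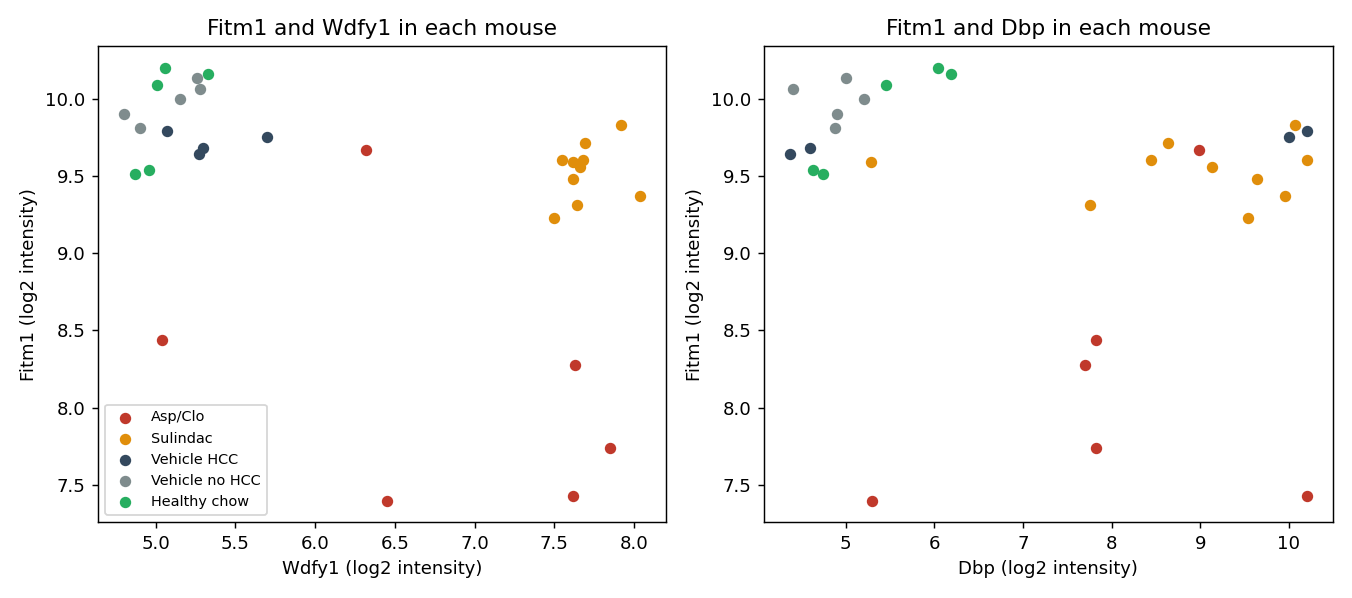
Fitm1 against Wdfy1 (left) and against the clock output gene Dbp (right), both log2 intensity, 1 point per mouse coloured by group. AspClo_60 lies at a Wdfy1 of 5.04 and a Fitm1 of 8.44, and AspClo_62 at a Wdfy1 of 6.32 and a Fitm1 of 9.67. AspClo_63 lies at a Dbp of 5.30 and a Fitm1 of 7.40. The part of cohort or time of day in Fitm1 was not tested.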

How the data were processed

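Liver RNA of 30 mice was hybridised to 1 array each. The deposited values, intensity by probe set on a linear scale, were made by the authors with RMA and quantile normalization, per the series' design text and the labels. Its version: not given in the sources used here. Log2 was taken here, and the number of arrays limits the precision. Of 45141 probe sets, 28898 carry 1 gene symbol, 551 several and 15588 none (104 are controls), and 28689 matched RefSeq GRCm38.p6, which was used for names, positions and upstream sequence.

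Mice were grouped by the labels, which give 9 vehicle mice where the design text lists 4. The model, with a mean for each of the 5 groups, used limma 3.58.1 in R 4.3.3 (25 residual degrees of freedom, threshold 0.05), with vehicle as the mean of its 9 mice. Correlations used 100000 permutations within groups. The fit was tested on simulated data. The members, gene lists, motifs and tests were chosen with earlier results of these data known. All members are named. Of other lists, up to 4 genes past the threshold were eligible to be named, and Dbp, Nnt, Wdfy1, Adipoq and Acta1 serve as markers. Alternatives covered probe sets, dim genes, arrays in the fit, the variance prior, array weights, centring and mice left out. Nothing shows whether mice shared a cage or batch.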

Additional observations from a re-analysis of the deposited data

Results flagged for a closer look

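A mouse far from the rest of its group was looked for in 45 sets, the 9 genes in 5 groups, and 4 were found, where chance gives about 1 in 20. G0s2 was 12.34 in AspClo_62, against 11.05 in the next Asp/Clo mouse. Plin4 was 6.37 in AspClo_62, against 5.35 in the next. Plin3 was 7.30 in Sulin_16, against 8.20 in the next lowest sulindac mouse. Cidea was 6.76 in Veh_low_1819, 1 of the 4 mice nearer the other set, against 9.46 in the next lowest vehicle mouse without HCC.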

How the results depend on the processing

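Counts of members past the threshold are out of 9. Left out 1 mouse at a time, they ranged from 3 to 6 for Asp/Clo against vehicle (4 with all mice), 2 to 3 against healthy (2) and 1 to 3 against sulindac (2), from 0 to 1 for sulindac against healthy (0), and stayed at 0 in the other 5 comparisons. Without the 4 mice nearer the other set, the counts were 7 for Asp/Clo against vehicle, 4 against healthy and 4 against sulindac. The 4 against healthy were Cidea, Plin5 and Fitm1, lower, and Plin2, higher (change 0.28, limma adjusted p = 0.0475). For sulindac the counts were 1 against vehicle and 4 against healthy. For vehicle, vehicle with HCC and vehicle without HCC against healthy they were 4, 3 and 4. Of all genes, 4.79%, 5.43% and 2.01% passed in these Asp/Clo comparisons, in that order. The shares were 0.836% and 7.76% for sulindac and 5.61%, 5.01% and 2.95% for the vehicle sets. There Osbpl3 in vehicle without HCC against healthy turned to 2.11 (limma adjusted p = 0.012), against -0.045 with all mice. With array weights, the counts were 3 for sulindac, 1 for vehicle and 2 for vehicle with HCC, each against healthy. With only the compared groups in the fit, they were 0 for Asp/Clo against healthy and 1 for sulindac against each of vehicle and healthy. Without dim genes, Asp/Clo against healthy gave 4, and with all probe sets averaged, Asp/Clo against sulindac gave 1. Set against vehicle without HCC only, a split added after seeing the data, sulindac gave 1, and Asp/Clo no longer passed for Osbpl3 (-1.86, limma adjusted p = 0.108). Apart from the fit without the 4 mice, no share of all genes is at hand for these alternatives, so their counts cannot be set against a background. The cause of these shifts was not tested. Centring the arrays moved no count beyond 1.5 times, nor did the trend in the prior variance. No paired analysis was possible because the animal numbers are not shared between groups. Plin2 is near the bright end of the arrays and Mogat1 and, in Asp/Clo livers, Osbpl3 and Cidea near the dim end, which can compress differences.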
